A study of Mus musculus with 38 samples.

Results

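The Tas2r genes encode the bitter taste receptors, and the 35 described here were every protein_coding gene whose symbol is Tas2r followed by a number, out of 78202 genes (21687 of them protein_coding) in the tables deposited for each antibody. Bitter taste receptors are G protein-coupled receptors that taste cells carry to detect bitter, often toxic, compounds, and they signal through gustducin, a phospholipase, the calcium store and a cation channel. They are short genes, many of which arose by tandem duplication and lie in arrays, and they are not known for a role in embryonic cells. The measurements are of chromatin over these genes and not of their transcripts.

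The libraries came from mouse embryonic stem cells in the naive state (naive mES cells) and from the epiblast-like cells (EpiLCs) differentiated from them, and the study asked how the proteins of the nuclear periphery hold chromatin there. CUT&RUN, where an antibody guides a nuclease to its target and the DNA cut loose is sequenced, was performed against LAP2B, which sits in the inner membrane of the nucleus, in WT, LBRKO, TKO and QKO cells at both stages. LBRKO cells lack the lamin B receptor LBR after CRISPR editing of the WT line, TKO cells lack the 3 lamin genes Lmna, Lmnb1 and Lmnb2, and QKO cells lack all 3 and LBR. WT cells of both stages were also profiled with an antibody against lamin B1 (LMNB1) and with a secondary antibody alone as the negative control (IGG). Each of the 12 groups held 3 libraries, which gave 36 in all, 24 of them for LAP2B. TKO and WT are separate lines from littermates, and QKO is a single clone made from TKO. LBRKO cells were grown from colonies picked after the editing. Line or clone and genotype therefore cannot be told apart in any of the mutants. Some WT cells carried extra copies of chromosomes 6 and 8, and the TKO line an extra copy of chromosome 8, by karyotype. Since 33 of the 35 Tas2r genes lie on chromosome 6, the median change of that chromosome is given beside that of the Tas2r genes for each LAP2B and LMNB1 comparison of groups on the relative scale. The labelled cell types were not checked, since no transcript was measured. Coverage over the targeted genes did not check the genotype labels either. Lbr was disrupted by short indels, which coverage summed over the whole gene could not show. At neither stage did any targeted gene lie below WT in all libraries of a mutant that lacks it. LAP2B values over Lbr were 7.26 to 8.71 times those of the median gene in naive LBRKO cells and 4.30 to 5.67 times in naive WT, and 5.47 to 6.99 and 5.12 to 5.64 times in EpiLCs. In naive TKO cells Lmna was at 9.66 to 37.8 times the median gene against 4.16 to 9.56 in WT, and Lmnb1 at 10.8 to 14.0 against 11.8 to 13.2.

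A gene's deposited value follows the sum of the spike-in scaled coverage of the 1 kb bins it touches. On the spike-in scale values were used as deposited, and on the relative scale they were divided by the median gene of their library. A level is the value per bin divided by the library's median value per bin, so the median gene is at 1 and genes of unequal length can be compared. Each library held 12028659 to 45689196 reads summed over all genes, but a Tas2r gene is covered by few of them: the median Tas2r gene had 13 to 102 reads in a library, and single values ranged from 2 to 171 reads. Each library pooled many cells, so a lower value in every cell and a loss in some of the cells cannot be told apart.

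Of the 35 genes, 34 passed the filter, which drops the 0.1 of genes with the lowest mean, and Tas2r139 (chr6:42117870-42118829, GRCm39) did not. It was listed at 0 in all 36 libraries, as were 3244 genes in all (747 protein_coding) and both genes within 50 kb of it, so nothing was measured there. The 35 genes fell into 6 places. Tas2r134 lies alone on chromosome 2 (chr2:51517523-51518420), Tas2r119 alone on chromosome 15 (chr15:32177435-32178440) and Tas2r118 alone at chr6:23969160-23970059. Tas2r137, Tas2r108 and Tas2r138 lie together at chr6:40468167-40590244, and Tas2r139, Tas2r144, Tas2r143, Tas2r135 and Tas2r126 at chr6:42117870-42412398. The remaining 24 form the distal array at chr6:131606786-133032779, with 6 genes at its start (Tas2r130, Tas2r107, Tas2r106, Tas2r104, Tas2r105 and Tas2r114) and, after a gap without Tas2r genes, 18 more from Tas2r120 to Tas2r140.

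The start regions of 4 of these genes are printed to show what the measured DNA looks like, from 250 bases before the annotated gene start to the 50 bases after it, on the gene's own strand and in the GRCm39 genome. Every CG dinucleotide, the site of DNA methylation, is in capitals. All 4 annotated genes begin with ATG, the letters of a start codon, so the windows need not hold the start of transcription. Tas2r114 (chr6:131666977-131667276, minus strand) fell furthest in naive LBRKO and TKO cells and holds no CG. Tas2r125 (chr6:132886364-132886663, plus strand), the only Tas2r gene called higher in a LAP2B comparison between groups, holds 3. Tas2r118 (chr6:23970010-23970309, minus strand), where the naive and EpiLC responses differed in both LBRKO and QKO, holds 3, and Tas2r138 (chr6:40590195-40590494, minus strand), the mouse ortholog of the receptor for phenylthiocarbamide, holds 4, the most of any.
Tas2r114: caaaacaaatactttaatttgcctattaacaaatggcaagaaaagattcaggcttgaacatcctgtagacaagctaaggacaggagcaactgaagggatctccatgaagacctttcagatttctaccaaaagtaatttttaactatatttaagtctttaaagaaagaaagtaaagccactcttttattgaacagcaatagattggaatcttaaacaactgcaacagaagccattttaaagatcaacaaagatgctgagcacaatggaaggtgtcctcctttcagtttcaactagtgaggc
Tas2r125: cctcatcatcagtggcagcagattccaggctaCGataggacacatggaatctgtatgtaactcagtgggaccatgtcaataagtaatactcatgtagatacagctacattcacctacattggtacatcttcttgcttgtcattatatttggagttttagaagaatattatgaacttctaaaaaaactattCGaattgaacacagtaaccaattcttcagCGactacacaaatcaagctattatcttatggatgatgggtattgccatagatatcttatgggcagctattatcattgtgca
Tas2r118: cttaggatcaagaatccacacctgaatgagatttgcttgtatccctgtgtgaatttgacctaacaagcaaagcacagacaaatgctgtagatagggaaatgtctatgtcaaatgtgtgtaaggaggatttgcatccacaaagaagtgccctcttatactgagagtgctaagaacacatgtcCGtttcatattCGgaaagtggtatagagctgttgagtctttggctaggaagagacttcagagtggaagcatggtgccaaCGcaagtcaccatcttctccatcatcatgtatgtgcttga
Tas2r138: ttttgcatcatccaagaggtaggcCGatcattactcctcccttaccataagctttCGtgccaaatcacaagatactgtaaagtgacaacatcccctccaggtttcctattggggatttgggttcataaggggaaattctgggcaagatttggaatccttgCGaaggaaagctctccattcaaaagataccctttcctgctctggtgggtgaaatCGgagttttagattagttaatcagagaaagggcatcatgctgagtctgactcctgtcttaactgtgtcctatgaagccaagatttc

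Tas2r start regions were poor in CG. The letters CG, which read the same on both strands, were absent from the window of 11 of the 35 genes, compared with 5.62% of 21683 protein_coding windows of the same length, and 34 of the 35 held at most 3, compared with 28.2%. Many of the annotated Tas2r genes begin with ATG, and how often the other genes do was not counted. The windows of both sets may therefore sit at unlike places. GC content over the measured bins was also low, with a median of 37.1% over the 34 tested genes (31.7% to 46.4%), beside 45.1% over the 12383 genes that touch 2 bins. Sequences of the genes had drifted apart, with a median pairwise identity of 63.6% over 595 pairs (57.1% to 86.3%). Tas2r123 and Tas2r110, 86.3% identical, shared a run of 120 bases, and Tas2r117 and Tas2r109, 82.0% identical, a run of 77 bases. These runs exceed the 50-base reads, and no filter on mapping quality is described, so reads of these 4 genes may have been placed on the partner and their values are uncertain. No other gene's run shared with its nearest relative reached the read length.

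In WT naive mES cells, LMNB1 covered the Tas2r genes more densely than the median gene. The median level of the 34 genes was 2.91, with 33 of them above the median gene, and the medians in the 3 libraries were 3.5, 2.19 and 2.94. All genes tested had a median level of 1.08, genes on chromosome 6 of 1.39, genes touching 2 bins of 1.22 and protein_coding genes of 0.913. LAP2B gave a lower median level of 2.08 (1.59, 2.61 and 1.90 in the 3 libraries). With IGG the Tas2r genes sat at the median gene, with a median level of 1.0 and 18 of 34 above 1. Across genes, levels of LMNB1 and LAP2B had a Spearman's rho of 0.69 (n = 34 genes, not independent replicates), and of 0.33 within the 24 genes of the array.

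The distal array held the densest LMNB1. Its 24 genes had a median level of 3.35 (1.72 to 4.48), compared with 1.45 for the Tas2r137 to Tas2r138 group and 1.32 for the 4 measured genes of the Tas2r144 to Tas2r126 group. Tas2r117 (chr6:132779781-132780938) was at 5.70, 3.32 and 4.41 in the 3 libraries, 4.48 ± 1.19 (SD, n = 3), a level above 99.5% of the genes with coordinates. Tas2r131 (chr6:132933847-132934882), the lowest of the array, was at 2.3, 1.00 and 1.87, 1.72 ± 0.662. With all 34 genes ranked by level, genes next to each other in rank were hard to separate: of 33 such pairs, 1 was apart by more than the larger of its 2 SDs.

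Outside the array the levels were mostly lower, and the gene on chromosome 15 was below the median gene in all 3 libraries. Tas2r119 had LMNB1 levels of 0.467, 0.647 and 0.467, a level above 17.8% of the genes with coordinates. Tas2r134 was at 1.83, 1.09 and 1.13. Tas2r118 was at 1.80, 1.35 and 2.44, Tas2r138 at 2.57, 1.88 and 1.5, Tas2r108, a receptor for denatonium, at 0.967, 1.53 and 1.07, and Tas2r144 at 1.43, 1.03 and 1.67. These single genes overlapped one another in their libraries except for Tas2r119, which lay below all of them. GC content fell as LMNB1 rose over the 34 genes (rho -0.67), and within the 24 genes of the array rho was -0.22. LAP2B levels had rho -0.37 with GC over the 34 and 0.29 within the array, and IGG levels 0.015 over the 34. The array differs from the other genes in place and in GC at the same time.

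**Figure D1:**
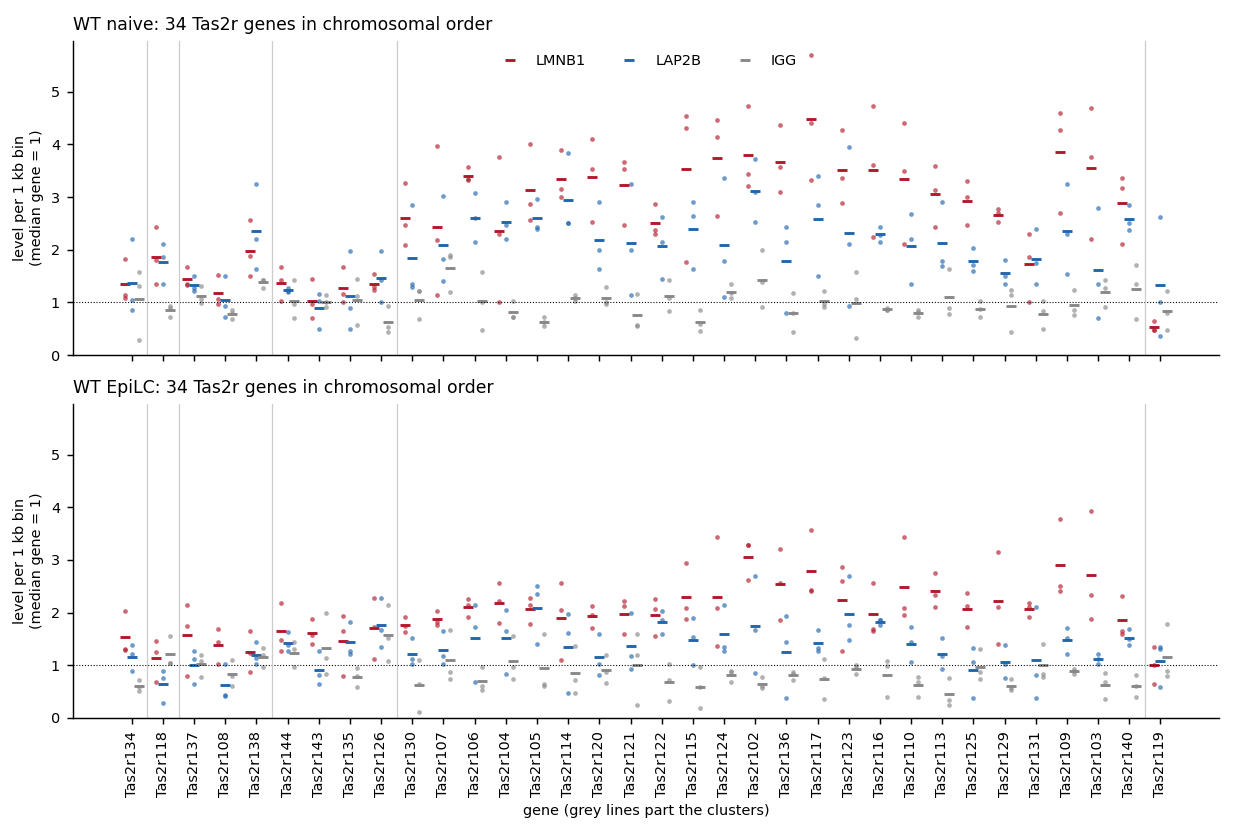
Level per 1 kb bin (vertical axis, median gene = 1) of LMNB1, LAP2B and IGG for the 34 tested Tas2r genes in chromosomal order, in WT naive cells above and WT EpiLCs below, with points for the 3 libraries, bars for their mean and grey lines between the groups of neighbouring genes. LMNB1 in naive cells is highest in the distal array, with means of 1.72 to 4.48, and lowest at Tas2r119, and IGG means run from 0.626 to 1.65 in naive cells and from 0.447 to 1.58 in EpiLCs.

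Receptor genes of the other chemical senses are a comparison, since they too lie in arrays. The 1104 olfactory receptor genes with coordinates had a median LMNB1 level of 2.13 in WT naive cells and the 147 Vmn1r genes, which encode vomeronasal receptors, of 1.77. The 5 Tas2r pseudogenes, all on chromosome 6, were at 3.22. Genes that start within 500 kb of a Tas2r gene, 212 in number, had a median of 1.71 over all places together. Along the array, 250 kb windows with Tas2r genes had median levels of 2.88 (0 to 250 kb), 3.45 (1000 to 1250 kb) and 3.06 (1250 to 1500 kb). Windows between them, without Tas2r genes, had 3.03 (250 to 500 kb), 2.505 (500 to 750 kb) and 2.35 (750 to 1000 kb). Further windows without them ranged from 1.30 to 4.03, so dense LMNB1 was not confined to the Tas2r genes. The receptor families hold unequal shares of array genes and were not tested against each other.

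LAP2B fell at nearly all Tas2r genes in naive cells that lack both lamins and LBR. In naive QKO cells compared with WT, 32 of the 34 tested genes fell on the relative scale and none rose, and the median change was -1.35 on the log2 scale, 2.55-fold lower. Among all 70381 genes tested, 42.5% fell and 33.1% rose, compared with 94.1% and none of the Tas2r genes. The median change of all genes was -0.23, of genes touching 2 bins -0.38 and of genes on chromosome 6 -0.66. The median Tas2r gene stood at 0.618, 0.989 and 0.673 times the median gene in the 3 WT libraries and at 0.200, 0.210 and 0.191 in the 3 QKO libraries. The groups did not overlap at 30 of the 34 genes, beside 42.1% of all genes tested. For comparison, IGG in WT naive cells put the median Tas2r gene at 0.431, 0.341 and 0.410 on this scale, above all 3 QKO libraries. As deposited, it stood at 0.249, 0.140 and 0.255 with IGG and at 0.218, 0.193 and 0.206 in QKO, which overlapped. IGG was measured in WT cells only.

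The largest fall in naive QKO cells was at Tas2r140 (chr6:133031780-133032779), the last gene of the array. It read 1.11, 0.932 and 0.962 times the median gene in WT and 0.0889, 0.190 and 0.118 in QKO, from 8, 20 and 8 reads. No QKO library reached the lowest WT library, and the change was -2.27 ± 0.29 (SE) with a limma adjusted p = 7.4e-10. Tas2r117, the gene with the densest LMNB1, read 1.11, 0.591 and 1.31 in WT and 0.400, 0.190 and 0.206 in QKO. These did not overlap either, and the change was -1.58 ± 0.33 (limma adjusted p = 3.8e-05).

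Genes outside the array fell too, among them both genes on other chromosomes. Tas2r134 on chromosome 2 read 0.333, 0.864 and 0.404 in WT and 0.178, 0.210 and 0.118 in naive QKO, a change of -1.16 ± 0.31 (limma adjusted p = 0.00078). Tas2r119 on chromosome 15 read 0.139, 1.0 and 0.385 in WT and 0.178, 0.152 and 0.191 in QKO. Its groups overlapped, and its change of -0.89 ± 0.36 (limma adjusted p = 0.023) rested on the second WT library: without it the change was -0.32 (limma adjusted p = 0.43), and it was not called without the second QKO library or divided by the mean gene or the chromosome 6 median either. Tas2r108 read 0.278, 0.364 and 0.577 in WT and 0.111, 0.286 and 0.0294 in QKO, the last from 2 reads. Its change of -1.16 ± 0.35 (limma adjusted p = 0.0030) was not called without the third QKO library.

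The 2 tested genes that were not called were named after their values were seen. Tas2r143 (chr6:42377172-42378053) read 0.403, 0.455 and 0.192 in WT and 0.111, 0.210 and 0.471 in QKO, a change of -0.38 ± 0.33 (limma adjusted p = 0.30). Tas2r103 (chr6:133013126-133014064) read 0.528, 1.09 and 0.269 in WT and 0.256, 0.343 and 0.324 in QKO, a change of -0.68 ± 0.35 (limma adjusted p = 0.074). Both overlapped between the groups. The remaining 27 called genes lay between -2.06 and -0.99.

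The spike-in scale keeps a loss over the whole genome, but read depth also bears on it. On that scale LAP2B fell at 34 of 34 Tas2r genes in naive QKO cells, beside 65.5% of all genes tested. The LAP2B libraries held 22809969 to 34639138 reads in naive QKO and 19264866 to 28566810 in naive WT. The median change was -2.15 for the Tas2r genes and -1.24 for all genes. Dividing each library by the median gene of chromosome 6 in place of all genes left 30 of the 34 lower, beside 30.2% of all genes tested. Leaving out single libraries gave 34 each time by spike-in and 29 to 33 on the relative scale.

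In naive TKO cells, which lack the lamins and keep LBR, 19 of the 34 Tas2r genes fell and none rose on the relative scale, 55.9% beside 27.6% of all genes tested that fell and 21.8% that rose. Medians of the change were -0.80 for the Tas2r genes, -0.11 for all genes and -0.30 for genes on chromosome 6. Of the 19, 17 lay in the array. At 17 genes the groups did not overlap, beside 29.4% of all genes tested. WT naive library 2 bears on the count: it put the median Tas2r gene at 0.989, above the other WT libraries at 0.618 and 0.673, and without it 10 genes were called. Dividing by the median gene of chromosome 6 also gave 10, beside 15.9% of all genes tested, and dividing by the mean gene 9, beside 14.8%. By spike-in 31 fell, beside 47.5% of all genes tested, and 19 without that library.

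Loss of LBR alone gave a share of falling genes near that of the genome. In naive LBRKO cells, 10 of the 34 Tas2r genes fell and none rose, 29.4% beside 27.7% of all genes tested that fell and 28.9% that rose, and at 11 the groups did not overlap, beside 28.5%. Their median change was -0.48, while that of chromosome 6 genes was +0.26, and divided by the median gene of chromosome 6, 18 Tas2r genes were called lower, beside 36.3% of all genes tested under that scaling. The count was 6 without WT naive library 2 and 5 without LBRKO naive library 2. Within the array, 4 of the first 6 genes fell (median -0.88) and 2 of the other 18 (median -0.33). Changes along the array rose with position (Spearman's rho 0.56, n = 24 genes that share libraries and neighbours). By spike-in 6 genes fell, beside 17.8% of all genes tested, and 2 without WT naive library 2. With the spike-in factor applied to the recovered reads 2 fell as well, beside 9.47% of all genes tested.

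Tas2r114 (chr6:131666097-131667026), the last of the first 6, had the largest fall in both single losses. It read 0.972, 1.5 and 0.962 times the median gene in WT naive cells, against LBRKO values of 0.25, 0.0984 and 0.554, TKO values of 0.342, 0.150 and 0.403 and QKO values of 0.289, 0.210 and 0.235. Every mutant library lay below every WT library. The changes were -1.78 ± 0.35 in LBRKO (limma adjusted p = 2.4e-05), -1.68 ± 0.35 in TKO (limma adjusted p = 7.7e-05) and -1.83 ± 0.35 in QKO (limma adjusted p = 6.6e-06). These 3 comparisons share their WT libraries, and the mutants were not tested against each other.

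Its close neighbour Tas2r105 (chr6:131663495-131664458), a receptor for cycloheximide, moved in the same direction. It read 1.15, 0.955 and 0.923 in WT naive cells, while LBRKO libraries gave 0.346, 0.361 and 0.434, TKO libraries 0.447, 0.325 and 0.373 and QKO libraries 0.200, 0.162 and 0.206. No mutant library reached a WT library. Tas2r140 at the other end of the array read 0.808, 0.492 and 0.626 in LBRKO and 0.368, 0.550 and 0.269 in TKO, also below WT in each library, with changes of -0.59 ± 0.29 (limma adjusted p = 0.075) and -1.19 ± 0.29 (limma adjusted p = 0.00056).

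**Figure D2:**
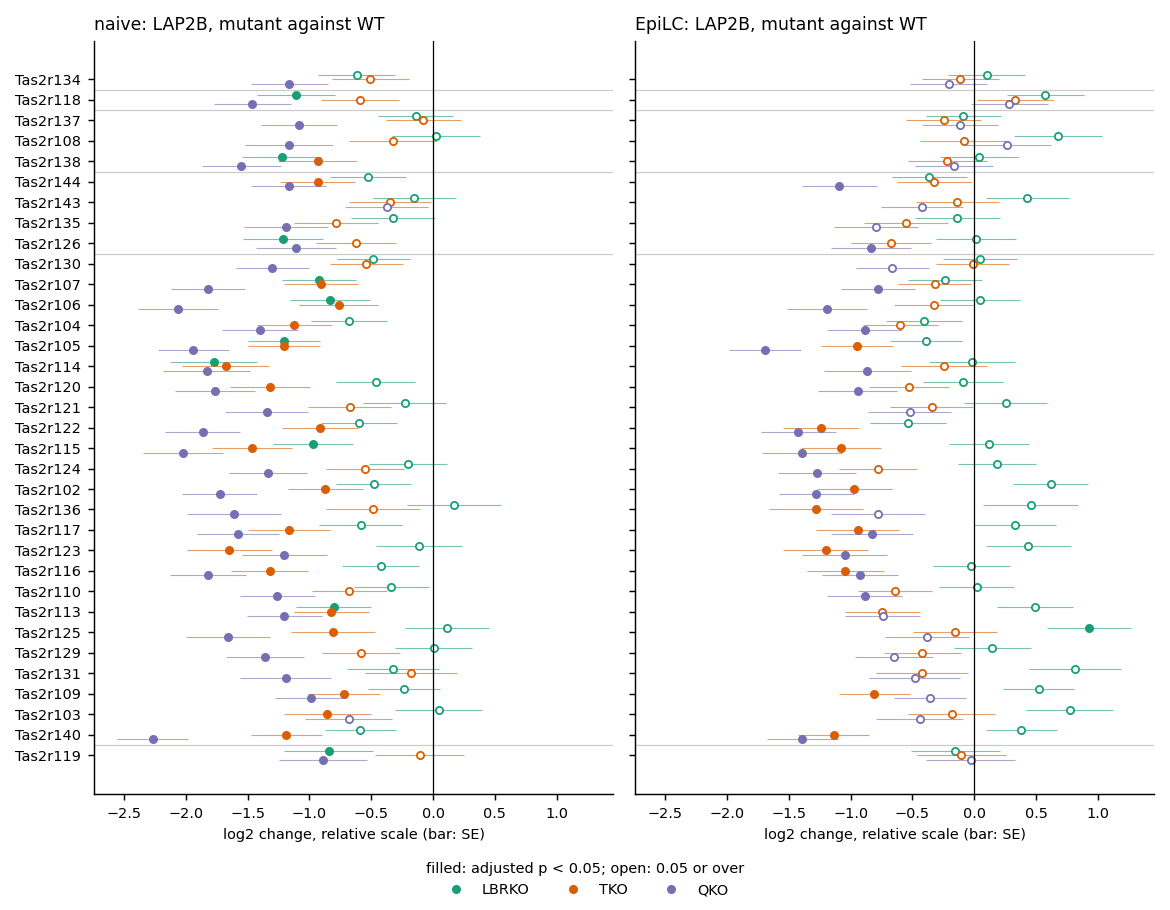
Change of LAP2B against WT (log2, relative scale, bars for the SE) for each of the 34 tested Tas2r genes in LBRKO, TKO and QKO, in naive cells on the left and EpiLCs on the right, filled where the adjusted p is under 0.05. In naive QKO cells 32 genes are filled and lie left of 0, and in EpiLCs 17.

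In EpiLCs, LAP2B fell at 17 of the 34 Tas2r genes in QKO cells and rose at none, 50% beside 17.8% of all genes tested that fell and 18.3% that rose. Medians of the change were -0.79 for the Tas2r genes, +0.02 for all genes and -0.27 for chromosome 6, and divided by the median gene of chromosome 6, 9 were called lower, beside 9.27% of all genes tested under that scaling. The median Tas2r gene stood at 0.600, 0.524 and 0.420 in the WT libraries and 0.273, 0.241 and 0.283 in the QKO libraries, and IGG in WT EpiLCs put it at 0.301, 0.326 and 0.315. As deposited, it stood at 0.434, 0.346 and 0.408 in QKO and at 0.275, 0.625 and 0.226 with IGG. At 20 genes the groups did not overlap, beside 24.3% of all genes tested. The count was 10 without QKO EpiLC library 1 or 2 and 9 without WT EpiLC library 1. With spike-in scaling 31 genes fell, beside 55.7% of all genes tested. LAP2B does not report the same thing at both stages: by the study's account its signal in WT EpiLCs also lay outside lamina-associated domains, and it was not used there as a stand-in for them. The EpiLC values and the tests between stages are therefore of LAP2B coverage, not of contact with the lamina.

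Tas2r105 had the largest fall in QKO EpiLCs. It read 0.933, 0.571 and 0.964 in WT and 0.159, 0.281 and 0.121 in QKO, groups that did not overlap, with a change of -1.69 ± 0.29 (limma adjusted p = 7.0e-06). Tas2r144 (chr6:42192262-42193221) also fell there, from 0.50, 0.560 and 0.625 to 0.114, 0.228 and 0.323, by -1.09 ± 0.30 (limma adjusted p = 0.0038). In naive QKO it had read 0.222, 0.114 and 0.147 against 0.472, 0.50 and 0.462 in WT, a change of -1.17 ± 0.30 (limma adjusted p = 0.00060). Of the 17 genes called in QKO EpiLCs, 15 were in the array and the other 2 were Tas2r144 and Tas2r126.

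TKO EpiLCs had 10 of the 34 Tas2r genes lower and none higher, 29.4% beside 9.97% of all genes tested that fell and 8.68% that rose, and all 10 were in the array. The median change was -0.48, beside -0.17 for chromosome 6. The groups did not overlap at 13 genes, beside 17.7% of all genes tested. Without TKO EpiLC library 1 the count was 5, and without WT EpiLC library 1 it was 2. Tas2r136 (chr6:132754142-132755125), the gene with the largest fall, read 0.767, 0.583 and 0.143 in WT and 0.0952, 0.111 and 0.143 in TKO, the latter from 6, 10 and 14 reads. The third WT library was as low as the TKO libraries, and the change of -1.28 ± 0.38 (limma adjusted p = 0.014) was not called without TKO EpiLC library 1 or WT EpiLC library 1 or 2. With spike-in scaling 11 genes fell, beside 9.36% of all genes tested, but 0 without WT EpiLC library 1, 4 without WT EpiLC library 3, 6 without TKO EpiLC library 2 and 5 without TKO EpiLC library 3. With the factor applied to the reads 6 fell, beside 2.63% of all genes tested.

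In LBRKO EpiLCs no Tas2r gene was called lower, although 11 of the 34 had a change below 0, and 1 gene rose, 2.94% beside 13.3% of all genes tested that rose and 10.1% that fell. The median change was 0.11, beside 0.33 for chromosome 6 genes. That was the highest median of any chromosome in this comparison, with chromosome 9 next at 0.09. Tas2r125 (chr6:132886614-132887550) read 0.417, 0.536 and 0.143 in WT and 0.736, 0.667 and 0.753 in LBRKO, without overlap, a change of +0.93 ± 0.34 (limma adjusted p = 0.040). That call did not hold when any LBRKO EpiLC library or WT EpiLC library 3 was left out, nor with edgeR on the recovered reads, and divided by the chromosome 6 median the change was +0.59 (limma adjusted p = 0.18) and another gene was called lower, beside 31.1% of all genes tested. Without WT EpiLC library 1, 3 genes were called higher. Groups did not overlap, with LBRKO above WT, at 4 genes, Tas2r118, Tas2r125, Tas2r109 and Tas2r103, beside 20.6% of all genes tested, and with LBRKO below WT at 1 gene, Tas2r144, beside 17.9%. Tas2r144 read 0.50, 0.560 and 0.625 in WT and 0.484, 0.296 and 0.482 in LBRKO, a change of -0.36 ± 0.30 (limma adjusted p = 0.43). Changes rose along the array here too (Spearman's rho 0.70, n = 24 genes), from a median of -0.13 over the first 6 genes to +0.35 over the other 18. With spike-in scaling 1 gene rose, beside 5.55% of all genes tested, but 2 without WT EpiLC library 1 and none without WT EpiLC library 3 or any LBRKO EpiLC library. With the spike-in factor applied to the recovered reads, 12 rose and none fell, beside 33% of all genes tested that rose.

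**Figure D3:**
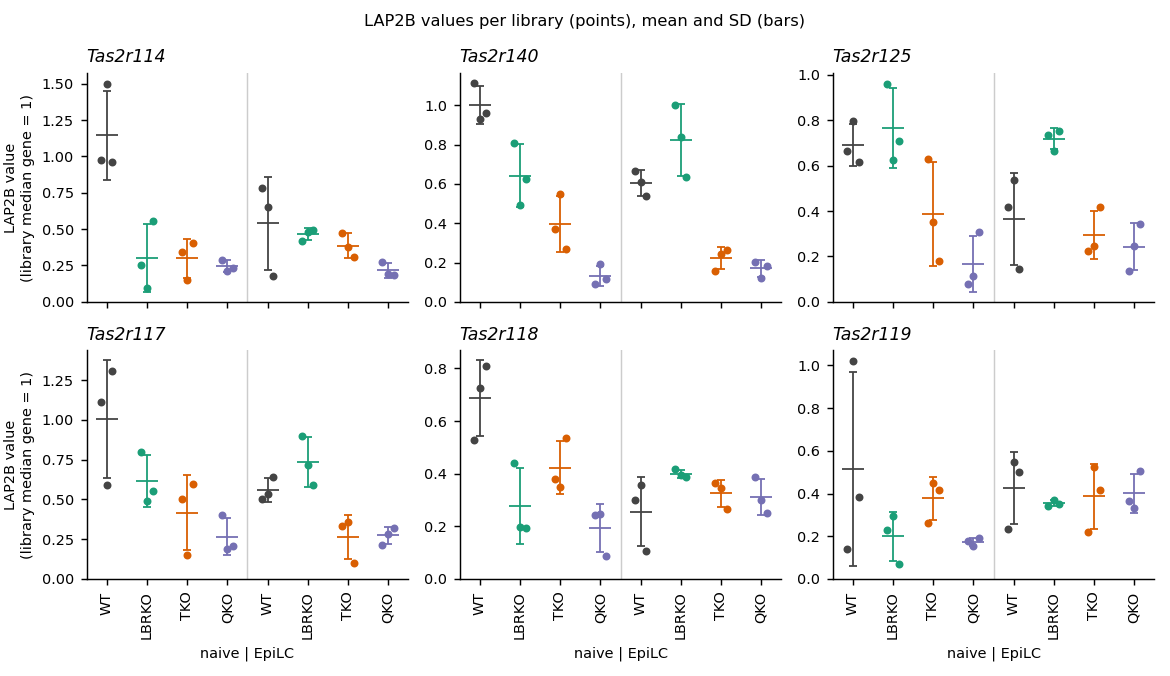
LAP2B values (vertical axis, relative to the library's median gene) of 6 Tas2r genes in WT, LBRKO, TKO and QKO cells of both stages, with a point for each of the 3 libraries and bars for the mean and SD. In naive cells every WT library of Tas2r114 and Tas2r140 lies above every mutant library, while Tas2r119 overlaps between WT and each mutant.

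The response to QKO and LBRKO was tested for a difference between the stages at each gene. In QKO, 5 of the 34 genes (14.7%) had a change that was more positive in EpiLCs than in naive cells, beside 24.9% of all genes tested, and none had a more negative one, beside 20.9%. In LBRKO, 5 genes (14.7%) had a change that was more positive in EpiLCs, beside 10.2% of all genes tested, and none a more negative one, beside 9.55%. For TKO none was called by limma, beside 9.60% of all genes tested in either direction, 2 had an unadjusted p under 0.05, beside 24.8%, and edgeR called none. Tas2r118 and Tas2r138 were called in both QKO and LBRKO, comparisons that share their WT libraries. Divided by the chromosome 6 median, 3 genes were called in each, beside 7.84% of all genes tested in LBRKO and 17.7% in QKO. The LBRKO count was 1 without WT EpiLC library 3, 2 without WT naive library 2 or LBRKO naive library 2, and 3 without WT EpiLC library 2 or any LBRKO EpiLC library. The QKO count was 2 without QKO EpiLC library 3, 3 without QKO naive library 1, WT EpiLC library 3 or WT naive library 2, and 8 without WT EpiLC library 1. For TKO it was 1 without TKO naive library 3, WT naive library 3 or WT EpiLC library 1 or 2.

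Tas2r118 shows where the stages parted. In naive cells it read 0.528, 0.727 and 0.808 in WT and 0.442, 0.197 and 0.193 in LBRKO, a fall by 1.11 ± 0.31 on the log2 scale (limma adjusted p = 0.0023), and 0.244, 0.248 and 0.0882 in QKO, a fall by 1.46 ± 0.31 (limma adjusted p = 4.4e-05). In EpiLCs WT read 0.300, 0.357 and 0.107, below LBRKO at 0.418, 0.395 and 0.388, while QKO at 0.386, 0.298 and 0.253 overlapped it. The EpiLC changes were +0.57 ± 0.31 and +0.28 ± 0.31 and were not called. WT itself had fallen between the stages at this gene, and the third EpiLC library, with 6 reads, was the lowest.

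From naive cells to EpiLCs, LAP2B in WT fell at 4 of the 34 Tas2r genes and rose at none, 11.8% beside 17.1% of all genes tested that fell and 15.1% that rose. Over the 34 genes the median change was -0.48, beside -0.07 for all genes and -0.13 for chromosome 6. Tas2r118 had the largest fall, by 1.21 ± 0.31 on the log2 scale (limma adjusted p = 0.0022), followed by Tas2r114, Tas2r125 and Tas2r102. Without WT EpiLC library 3 no gene was called, without WT naive library 2 there were 2, and without WT EpiLC library 1 there were 7. A pseudocount of 0.5 of the median gave 11, beside 19.4% of all genes tested, and the count was 2 with edgeR (beside 16.2%), divided by the chromosome 6 median (beside 11.2%) or divided by the mean gene (beside 7.5%). Groups did not overlap, with EpiLCs below, at 9 genes, beside 22.7% of all genes tested, and with EpiLCs above at 1 gene, Tas2r144, beside 16.6%. By spike-in 2 genes fell, beside 1.75% of all genes tested, while without WT EpiLC library 3 there were 0, without WT naive library 3 there was 1, and without WT naive library 2 a single gene was called and it was higher.

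LMNB1 levels of the Tas2r genes had a median of 1.98 in WT EpiLCs (1.87, 2.16 and 1.90 in the 3 libraries), and 2.15 over the array. At no single gene was the difference from naive cells called by limma on the relative scale, beside 13.4% of all genes tested in either direction, but 10 genes had an unadjusted p under 0.05, beside 30.1%. EdgeR called none. The median change was -0.37 for the Tas2r genes, -0.04 for all genes and -0.07 for chromosome 6. Without LMNB1 naive library 2, 6 genes were called lower, and without LMNB1 EpiLC library 2, 3 genes. The shares of all genes tested are not given for these fits. The groups did not overlap, with EpiLCs below naive cells, at 9 genes, beside 17% of all genes tested, and with EpiLCs above at 2 genes, Tas2r143 and Tas2r119, beside 15.3%. By spike-in no Tas2r gene was called, beside 8.0% of all genes tested that rose and 0.25% that fell. The median changes on that scale were -0.10 for the Tas2r genes, +0.22 for all genes and +0.19 for chromosome 6. Tas2r117 read 2.25, 1.28 and 1.71 times the median gene in naive cells and 0.961, 1.39 and 0.944 in EpiLCs, which overlapped, with a change of -0.61 ± 0.24 (limma adjusted p = 0.087). LAP2B levels in WT EpiLCs had a median of 1.36. IGG had 0.843 in EpiLCs, with 11 of 34 genes above 1, and no change between the stages was called by limma on the relative scale (5 genes had an unadjusted p under 0.05, beside 13.1% of all genes tested, edgeR called none, and 0.49% of all genes tested were called). The median IGG change by spike-in was +0.60 for the Tas2r genes and +0.92 for all genes, and no gene was called.

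Genes around the Tas2r genes fell in naive cells too, most of them on the relative scale in each mutant. On that scale, of the 212 neighbours within 500 kb, 191 fell and 3 rose in naive QKO cells (median -1.42), 134 fell and 6 rose in naive TKO (median -0.78) and 112 fell and 2 rose in naive LBRKO (median -0.66). The shares that fell were 90.1%, 63.2% and 52.8%, beside 42.5%, 27.6% and 27.7% of all genes tested. In EpiLCs 116 fell and 1 rose in QKO (median -0.67), 58 fell and none rose in TKO (median -0.39), and 15 fell and 17 rose in LBRKO (median -0.09). These are 54.7%, 27.4% and 7.08% that fell, beside 17.8%, 9.97% and 10.1% of all genes tested, so the LBRKO share was below that of the genome. By spike-in, 99.5% fell in naive QKO, 82.5% in naive TKO and 29.7% in naive LBRKO, beside 65.5%, 47.5% and 17.8% of all genes tested. In EpiLCs by spike-in 93.9% fell in QKO, 30.7% in TKO and 3.30% in LBRKO, beside 55.7%, 9.36% and 3.47%. Mgam, which encodes the intestinal enzyme maltase-glucoamylase and lies 15.5 kb after the Tas2r138 group, changed by -2.24 in naive QKO (limma adjusted p = 3.4e-24). Smim10l1, 49.1 kb past the end of the array, changed by -1.25 there (limma adjusted p = 7.4e-09) and by +0.84 in LBRKO EpiLCs (limma adjusted p = 0.00018). Rnd3, 478.3 kb before Tas2r134, changed by +0.07 in naive QKO (limma adjusted p = 0.67). Atpsckmt, 546.7 kb before Tas2r119, changed by -0.06 (limma adjusted p = 0.75). In naive TKO both rose, by 0.44 and 0.46 (limma adjusted p = 0.0057 and 0.018). The other nearest protein_coding genes on either side of each place fell in naive QKO. Tas2r genes were not tested against their neighbours.

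Windows of 250 kb across the distal array show both LBRKO profiles side by side. The Tas2r genes are counted in them: 6 of 6 genes at 0 to 250 kb, 11 of 18 at 1000 to 1250 kb and 7 of 23 at 1250 to 1500 kb. In naive LBRKO the median change was -0.88 in the window of the first 6 Tas2r genes, -0.45 at 1000 to 1250 kb and -0.23 at 1250 to 1500 kb, and it stayed below 0 up to 2250 kb. From 2250 to 2500 kb it was +0.81 and at 3250 to 3500 kb +1.65, beyond the last Tas2r gene. The EpiLC values in the 3 windows that hold Tas2r genes were -0.13, +0.22 and +0.66. QKO in naive cells gave -1.83, -1.50 and -1.25 in those windows, -1.91 at 2000 to 2250 kb and -0.51 in the next.

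**Figure D4:**
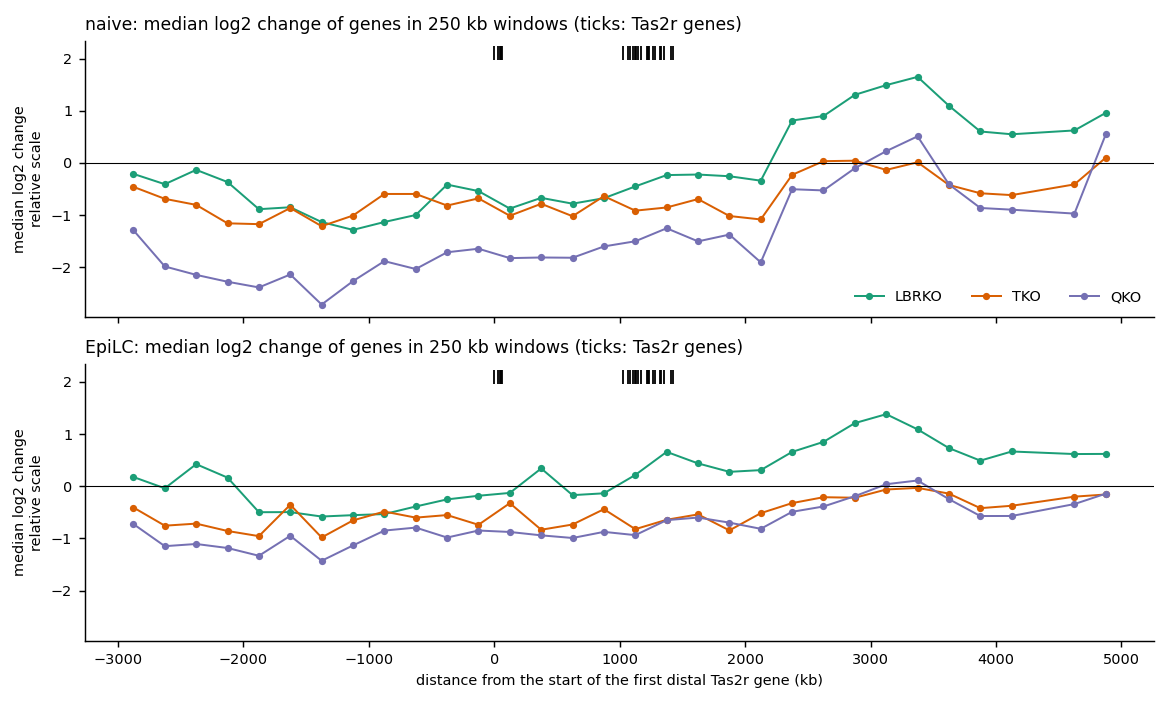
Median LAP2B change against WT (log2, relative scale) of genes in 250 kb windows, by distance in kb from the start of the first Tas2r gene of the distal array, for LBRKO, TKO and QKO in naive cells above and EpiLCs below, with ticks at the 24 Tas2r genes. All 3 naive lines lie below 0 where the Tas2r genes sit, and the LBRKO line passes 0 after 2250 kb.

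The Tas2r pseudogenes, former receptors that no longer encode a protein, were measured beside the receptor genes but not tested against them. On the relative scale all 5 fell in naive QKO (median -1.43) and naive TKO (median -0.92), 2 fell in naive LBRKO, 4 fell in QKO EpiLCs and 1 fell in TKO EpiLCs, beside 42.5%, 27.6%, 27.7%, 17.8% and 9.97% of all genes tested in that order. In LBRKO EpiLCs 1 rose and none fell (median +0.48, beside +0.11 for the receptor genes), while 13.3% of all genes tested rose. From naive cells to EpiLCs, 3 of the 5 fell in WT (median -0.80), beside 4 of the 34 receptor genes (median -0.48) and 17.1% of all genes tested. By spike-in all 5 fell in naive QKO, naive TKO and QKO EpiLCs 1 fell in naive LBRKO and 2 in TKO EpiLCs, beside 65.5%, 47.5%, 55.7%, 17.8% and 9.36% of all genes tested, and none was called in LBRKO EpiLCs or between the stages. Tas2r145-ps3 changed most in naive QKO, by -2.0 ± 0.32 (limma adjusted p = 1.7e-07).

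The genes that carry the bitter signal inside taste cells lie elsewhere in the genome. Of 11 transduction genes, 9 rose and 2 fell in naive QKO on the relative scale (median +1.51), while 48.1% of all protein_coding genes rose and 37.1% fell (median +0.25). On the spike-in scale 3 rose and 2 fell, and 17.6% of protein_coding genes rose and 58.3% fell. The genes that fell on both scales were Gnat3, which encodes the gustducin alpha subunit, with a relative change of -1.21 ± 0.14 (limma adjusted p = 2.5e-11), and Rgs21, a regulator of G protein signalling, with -2.13 ± 0.16 (limma adjusted p = 5.4e-17). Among those that rose on the relative scale were the channel gene Trpm5 (+0.75), the phospholipase gene Plcb2 (+0.97) and the calcium-release gene Itpr3 (+2.18). Gnb3, a G protein beta subunit gene on chromosome 6, rose by 1.62. With spike-in scaling Trpm5 (-0.47), Plcb2 (-0.24) and Gnb3 (+0.41) were not called in naive QKO, while Itpr3 still rose (+0.94). Gnat3 had an LMNB1 level of 2.3 ± 0.360 (SD, n = 3) in WT naive cells and Gnb1 of 0.436 ± 0.0574.

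In the other naive comparisons on the relative scale, 8 transduction genes rose and 2 fell in TKO, beside 37.3% and 27.8% of protein_coding genes, and 5 rose and 2 fell in LBRKO, beside 45.5% and 24.1%. In EpiLCs 8 rose and 2 fell in QKO (beside 35.3% and 19.1%), 4 rose and 2 fell in TKO (beside 18.7% and 12.4%), and 2 rose and 1 fell in LBRKO (beside 22.1% and 10.04%). The list was not tested against protein_coding genes. As deposited, none rose and 2 fell in naive TKO (beside 4.00% and 44.9% of protein_coding genes), in QKO EpiLCs (beside 0.0959% and 55.4%) and in TKO EpiLCs (beside 0.0288% and 10.4%). On that scale 5 rose and 1 fell in naive LBRKO, beside 42.3% and 14.7%, and none rose and 1 fell in LBRKO EpiLCs, beside 8.70% and 3.07%. The sweet and umami receptor genes Tas1r1, Tas1r2 and Tas1r3, all on chromosome 4, rose in naive QKO by 2.6, 1.46 and 2.11 on the relative scale, and 2 of the 3 rose on the spike-in scale. On the relative scale, olfactory receptor genes fell at 1000 of 1105 in naive QKO (median -1.60) and at 899 in naive LBRKO (median -1.11). Vmn1r genes fell at 145 of 148 (median -1.62) and 132 (median -1.23), beside 42.5% and 27.7% of all genes tested. Tas2r genes stood at 32 and 10 of 34 in the same comparisons, with medians of -1.35 and -0.48. As deposited, olfactory receptor genes fell at 1083 and 749, Vmn1r genes at 147 and 114 and Tas2r genes at 34 and 6. The shares of all genes tested were then 65.5% and 17.8%.

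**Figure D5:**
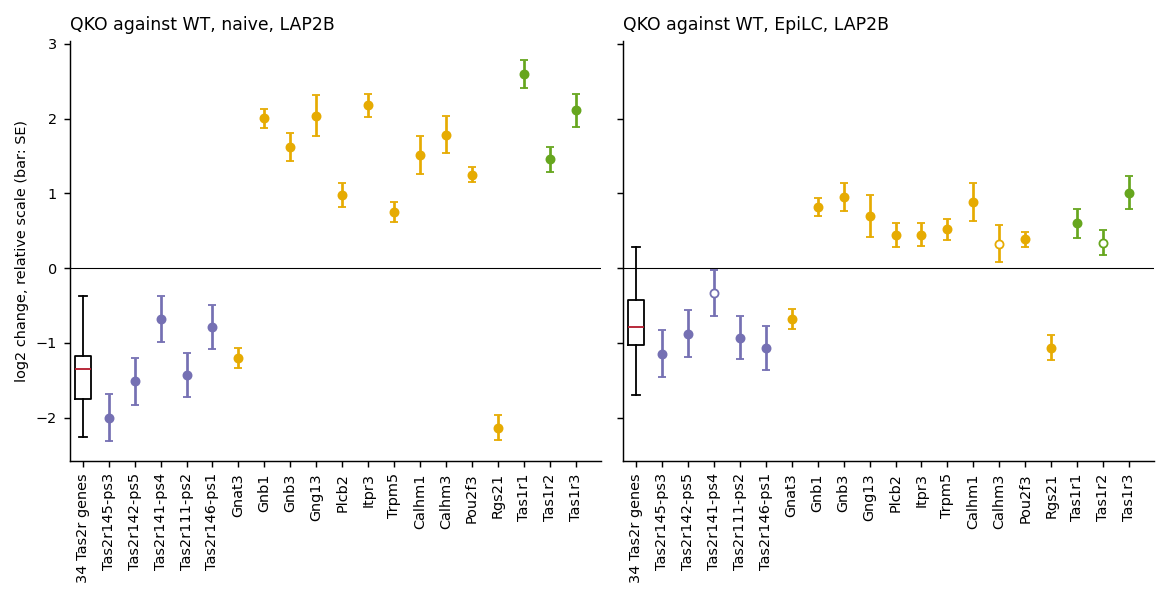
LAP2B change in QKO against WT (log2, relative scale) in naive cells on the left and EpiLCs on the right: a box for the 34 Tas2r genes (median, quartiles and full range) and single points with SE for the 5 Tas2r pseudogenes, 11 taste transduction genes and 3 sweet and umami receptor genes, filled where the adjusted p is under 0.05. In naive cells the Tas2r box and all pseudogenes lie below 0, and 9 transduction genes and the 3 Tas1r genes lie above it.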

How the data were processed

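CUT&RUN values of 36 libraries were analysed, and 2 H3K9me3 libraries and the tables of transposable elements were not used here. Per the study's methods and the submitters' notes, the authors aligned reads with Bowtie2 2.3.5.1 to mm39, kept proper primary pairs without duplicates with SAMtools 1.10, left out blacklisted regions and computed coverage in 1 kb bins with deepTools bamCoverage, multiplied by a factor from yeast spike-in reads mapped to sacCer3. How bins became gene values is not given in the sources used here. The deposited gene values are a coverage signal, and in each library all of them were whole multiples of 1 read's step (a share of 1, within 0.05 of a step). At 343 of 343 bins holding 2 or more genes that touch that bin only, those genes had equal values, and at 22 of 24 genes of 2 bins the value equalled the sum of 1-bin genes in those bins, so gene values were taken as sums over bins, not divided by length. Of the Tas2r genes, 3 share a bin with another gene. No pair of replicates agreed within sampling noise in a chi-square test of their reads.

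Values were taken on the deposited (spike-in) scale and divided by each library's median gene (relative scale), which removes a shift of the whole genome. The 0.1 of genes with the lowest mean were dropped and 70381 were fitted as log2(value + pseudocount), the pseudocount being 0.1 times the median value of the table, by limma 3.58.1 with trend in R 4.3.3, on all 24 LAP2B libraries or the 6 of another antibody. Tests were two-sided and adjusted by Benjamini-Hochberg over all 70381 genes, called under 0.05. The pseudocount understates changes of low values. The fits were also run on reads simulated for naive QKO against WT, with the same fixed spread for all genes. The replicates here differed by more than sampling noise, so that run does not vouch for the calls. edgeR 4.0.16 (quasi-likelihood) on the recovered reads was an alternative and called 33 Tas2r genes lower in naive QKO, 16 in naive TKO and 10 in naive LBRKO on the relative scale. Shares of all genes that edgeR called there are not given, so these counts show no excess over the genome. Gene positions were from GENCODE on GRCm39, with 78131 of 78202 genes found, and identities from Biopython 1.88 alignments.

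Groups and replicate numbers followed the labels. Nothing states that replicates were separate cultures, so p-values measure the spread between these libraries, which may be technical. Members, lists and tests were chosen with earlier results of these data known. Named with values in every library of a comparison were the Tas2r genes with the highest and lowest LMNB1 level in each place and with the largest called rise and fall in each comparison. Tas2r143 and Tas2r103 were added after their values were seen. The lists were Tas2r pseudogenes, 11 transduction genes (Gnat3, Gnb1, Gnb3, Gng13, Plcb2, Itpr3, Trpm5, Calhm1, Calhm3, Pou2f3 and Rgs21), Tas1r, olfactory and Vmn1r genes, and genes starting within 500 kb. Alternatives were the test, the replicate block, the pseudocount, the filter, the scaling, the libraries fitted and leaving out each library.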

Additional observations from a re-analysis of the deposited data

Results flagged for a closer look

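At 8 Tas2r genes the response to a mutation differed between naive cells and EpiLCs by the interaction term of the limma model, in 10 tests, all in LAP2B and all with the EpiLC change above the naive change on the relative log2 scale. The tests of LBRKO and QKO share their WT libraries. LAP2B in EpiLCs also covers chromatin outside lamina-associated domains by the study's account, so these are differences in LAP2B coverage. On the relative scale the median Tas2r gene stood at 0.618 to 0.989 in naive WT and at 0.420 to 0.600 in WT EpiLCs. In QKO it stood at 0.191 to 0.210 and 0.241 to 0.283, below IGG in WT at 0.341 to 0.431 and 0.301 to 0.326. How far the lower WT values in EpiLCs bear on these differences was not tested.

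In LBRKO, Tas2r114 differed by 1.757 (limma adjusted p = 0.0084), with a change of -1.78 in naive cells and -0.02 in EpiLCs. Tas2r118 differed by 1.682 (limma adjusted p = 0.0050), from -1.11 to +0.57. Tas2r113 differed by 1.295 (limma adjusted p = 0.026), from -0.80 to +0.49. For Tas2r138 the difference was 1.264 (limma adjusted p = 0.039), from -1.22 to +0.04. For Tas2r126 it was 1.233 (limma adjusted p = 0.048), from -1.22 to +0.02.

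In QKO, Tas2r118 differed by 1.746 (limma adjusted p = 0.0010), from -1.46 in naive cells to +0.28 in EpiLCs. Tas2r108 differed by 1.425 (limma adjusted p = 0.017), from -1.16 to +0.26. Tas2r138 differed by 1.388 (limma adjusted p = 0.0099), from -1.55 to -0.16. For Tas2r125 the difference was 1.28 (limma adjusted p = 0.026), from -1.66 to -0.38. For Tas2r107, which fell in both stages, it was 1.041 (limma adjusted p = 0.039), from -1.82 to -0.78. Among all genes tested, 10.2% had a more positive change in EpiLCs in LBRKO and 24.9% in QKO, beside 14.7% of the Tas2r genes in each. Dixon's test for a library far from the others was not run in groups of 3. Leaving out single libraries gave 1 to 7 genes in LBRKO and 2 to 8 in QKO.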

How the results depend on the processing

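Counts are of the 34 tested Tas2r genes called, with the reported count in brackets. Groups of 3 libraries with 2 to 171 reads on a Tas2r gene limit what single genes can show. On the relative scale, dividing by the chromosome 6 median gave 18 in naive LBRKO (10), 10 in naive TKO (19), 9 in QKO EpiLCs (17), 2 between the stages in LAP2B (4), 3 and 3 for the stage differences of LBRKO and QKO (5 and 5), and 1 gene lower in place of 1 higher in LBRKO EpiLCs. Dividing by the mean gene gave 9 in naive TKO, 2 between the stages in LAP2B, and 3 and 3 for the stage differences of LBRKO and QKO. A pseudocount of 0.5 of the median gave 2 in LBRKO EpiLCs (1), 11 between the stages in LAP2B and 1 for the stage difference of TKO (0). EdgeR gave 0 in LBRKO EpiLCs and 2 between the stages in LAP2B, same-stage libraries 2 in LBRKO EpiLCs, and a filter on the lowest 0.25 of genes 1 between the stages in LMNB1 (0). On the spike-in scale, applying the factor to reads gave 2 in naive LBRKO (6), 12 higher in LBRKO EpiLCs (1), 6 in TKO EpiLCs (11) and 1 between the stages in LAP2B (2). LBRKO EpiLCs gave 2 with a pseudocount of 0.5 of the median and 0 with no filter, a filter on the lowest 0.25 or edgeR, and edgeR gave 0 between the stages in LAP2B. The causes were not tested.

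Replicate numbers were not treated as pairs, since in no comparison did all 3 same-numbered pairs correlate above 0.1. The correlations ran from -0.25 (LMNB1 between the stages) to 0.18 (naive QKO against WT). Nothing states whether libraries of the same number shared a batch, and this rule cannot show that they did not. With the replicate number as a block, counts on the spike-in scale were 0 in LBRKO EpiLCs (1) and 1 between the stages in LAP2B (2), and no other count of calls moved by over 1.5 times.

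Leaving out 1 library at a time, counts on the relative scale were 5 to 13 in naive LBRKO, 10 to 19 in naive TKO, 29 to 33 in naive QKO, 0 to 3 in LBRKO EpiLCs, 2 to 9 in TKO EpiLCs and 9 to 17 in QKO EpiLCs. They were 0 to 7 between the stages in LAP2B, 0 to 6 in LMNB1 and 0 to 0 in IGG, and 1 to 7, 0 to 1 and 2 to 8 for the stage differences of LBRKO, TKO and QKO. On the spike-in scale they were 2 to 8, 19 to 31 and 34 to 34 in naive LBRKO, TKO and QKO, 0 to 2, 0 to 16 and 27 to 31 in EpiLCs, and 0 to 3, 0 to 1 and 0 to 3 between the stages in LAP2B, LMNB1 and IGG. Without WT naive library 2, the LAP2B stage comparison on that scale called 1 gene higher in place of 2 lower. Shares of all genes tested are not given for the fits without a library, so their counts show only how the calls moved. Over all settings of the genes named by rule, 334 values kept direction and call, 62 lost the call and 0 changed direction.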
